A study of Mus musculus with 4 samples.

Results

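Small nucleolar RNAs (snoRNAs) were examined in mouse embryonic stem cells with and without Gcn5 (Kat2a), a histone acetyltransferase. Members were taken by name, as all gene entries called Snora or Snord followed by a number, with 1 box C/D entry left out. This gave 104 entries of 23259 genes, 36 of box H/ACA (Snora) and 68 of box C/D (Snord). The 3 entries Snord116, Snord116l1 and Snord116l2 carried identical values in every library and were counted once, which left 102 distinct entries, 36 of box H/ACA and 66 of box C/D.

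RNA came from 4 clones, 1 per genotype from each of the Gcn5 flox/flox founder lines 4 and 6, which were derived from mouse blastocysts at E3.5. WT 1 (clone 4-1) and WT 2 (6-1) were picked from GFP-negative cells and keep the floxed alleles. KO 1 (4C2) and KO 2 (6C4) were picked from GFP-positive cells, sorted 72 hours after transient transfection with a vector for an EGFP-Cre protein under the EF1α promoter, and lack exons 3 to 18 of Gcn5. All lines had a normal male karyotype, per the labels, and were grown with 15% serum and 1000 U/mL of LIF on mitomycin-treated fibroblasts. Each library is therefore 1 clone, and within a founder line a difference between the clones and an effect of the deletion cannot be told apart. Replicate 1 is line 4 and replicate 2 is line 6. The total RNA was depleted of ribosomal RNA, and values are FPKM (fragments scaled by gene length and library size) scaled to ERCC control RNA added per mass of RNA.

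SnoRNAs are short RNAs of the nucleolus that guide chemical modification of other RNAs, mainly ribosomal RNA. Box C/D snoRNAs carry a C box near the 5′ end and a D box near the 3′ end, bind the methyltransferase fibrillarin (Fbl), and direct ribose methylation. Box H/ACA snoRNAs fold into hairpins, end in an ACA box, bind the pseudouridine synthase dyskerin (Dkc1), and direct pseudouridylation. Most mammalian snoRNAs lie in introns of other genes, often genes for ribosomal proteins or non-coding host transcripts, and are trimmed out of the spliced intron.

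Sequences of 4 box C/D and 3 box H/ACA entries are shown because the results below turn on them: Snord42b, Snord34, Snord100 and Snora64 are among the most abundant entries, and Snord82, Snora75 and Snora41 passed the test that pairs the clones by founder line. They come from GENCODE M21 transcripts on GRCm38, 5′ to 3′, written as DNA. Capitals mark TGATG (the core of the C box) and CTGA (the D box) in the box C/D entries, and ACA in the box H/ACA entries.
Snord42b: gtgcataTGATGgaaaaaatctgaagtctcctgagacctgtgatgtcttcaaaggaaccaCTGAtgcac
Snord34: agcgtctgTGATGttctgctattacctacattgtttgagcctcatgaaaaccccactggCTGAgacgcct
Snord100: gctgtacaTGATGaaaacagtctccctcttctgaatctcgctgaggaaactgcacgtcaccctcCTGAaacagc
Snord82: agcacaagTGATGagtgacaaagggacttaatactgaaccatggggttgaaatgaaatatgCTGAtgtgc
Snora64: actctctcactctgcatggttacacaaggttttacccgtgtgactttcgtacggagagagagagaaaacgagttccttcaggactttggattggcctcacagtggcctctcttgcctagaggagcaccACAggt
Snora41: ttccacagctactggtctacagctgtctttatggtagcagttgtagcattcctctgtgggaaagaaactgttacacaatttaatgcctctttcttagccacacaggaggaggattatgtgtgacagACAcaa
Snora75: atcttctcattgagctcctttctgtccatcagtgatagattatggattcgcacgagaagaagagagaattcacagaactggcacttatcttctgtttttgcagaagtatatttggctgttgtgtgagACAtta

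Each of these entries lies within a host gene on GRCm38, within an intron and in no annotated exon of the host for Snord42b, Snord34, Snord82 and Snora41, and in an intron or exon by isoform for Snord100, Snora64 and Snora75. Snord42b lies in Rpl23a on the minus strand of chromosome 11, Snord34 in Rpl13a on the minus strand of chromosome 7, and Snord100 in Rps12 on the minus strand of chromosome 10. Snora64 lies in Rps2 on the plus strand of chromosome 17 and Snora41 in Eef1b2 on the plus strand of chromosome 1. Snord82 and Snora75 share the host Ncl, on the minus strand of chromosome 1. Ncl codes for nucleolin, a nucleolar protein of ribosome assembly.

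The box letters separated the classes as their names state. TGATG within the first 20 bases was found in 56 of 66 box C/D sequences (84.8%) and in 0 of 36 box H/ACA sequences. CTGA within the last 20 bases was found in 64 of 66 (97%) and in 4 of 36 (11.1%). ACA near the 3′ end, at least 3 bases before it and within the last 20, was found in 31 of 36 box H/ACA sequences (86.1%) and in 11 of 66 box C/D sequences (16.7%). Searched the same way, on the RNA strand and without any overlap between the windows, the first 79 bases of 58754 protein-coding transcripts held TGATG in 1.39%, CTGA in 9.72% and both in 0.123%. ACA was found in 18.4% of the first 132 bases of such transcripts. A match is a description of letters and not of a working box.

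Short length and shared sequence limit what these values mean. By GENCODE, 36 box H/ACA entries were 121 to 196 bases long (median 132), and 65 box C/D entries were 64 to 238 bases long (median 79). RefSeq gave other lengths for some entries, 61 against 128 bases for Snora20 and 56 against 132 for Snora19. For others, such as Snora17 at 132 bases, the lengths were equal. FPKM divides by length, so 1 fragment adds far more FPKM to a snoRNA than to a messenger RNA, and the sources used here do not give the length used by the authors. Near copies can also share reads, which were not examined: Snord1b and Snord1c were 97.4% identical, Snord88a and Snord88c 94.4%, and Snord116l1 and Snord116l2 100%. Whether a read came from the mature snoRNA or from the unspliced or exonic RNA of the host cannot be told apart in the deposited values.

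The snoRNA entries were among the most abundant entries of these libraries. Of the 50 highest genes by mean FPKM, 7 were snoRNAs, of the highest 100, 16, and of the highest 200, 36. Their summed FPKM was 9.87% of all FPKM in WT 1, 9.06% in WT 2, 9.48% in KO 1 and 8.89% in KO 2. The share was lower in KO than in WT within each founder line, while KO 1 exceeded WT 2, so the genotypes overlapped. No test was made of it. The mean over the 4 libraries reached 1000 FPKM for 7 box H/ACA and 21 box C/D entries, and 100 FPKM for 20 and 47. The median entry had 108.5 FPKM in box H/ACA and 210.4 FPKM in box C/D, as levels per length.

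**Figure D1:**
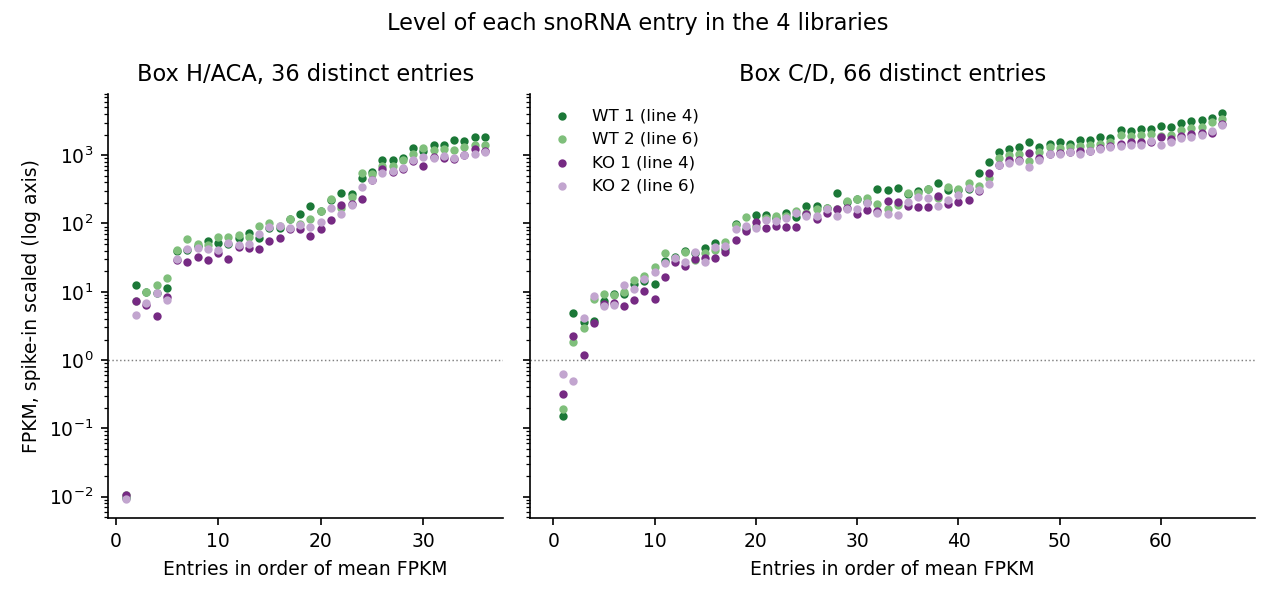
FPKM of each distinct snoRNA entry (y, log axis) against its rank by mean FPKM (x), box H/ACA on the left and box C/D on the right, with 1 point per library. Box C/D reaches higher levels, up to a mean of 3301 FPKM for Snord42b against 1388 FPKM for Snora64, and the dotted line at 1 FPKM is the mean needed for testing.

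In box C/D, the highest entry was Snord42b, a guide of ribose methylation on small-subunit rRNA. It had 4179 and 3406 FPKM in WT 1 and WT 2, and 2889 and 2730 FPKM in KO 1 and KO 2. Both KO libraries lay below both WT libraries. Snord100, also a guide to small-subunit rRNA, followed with 3484 and 3050 FPKM in WT and 2082 and 2286 FPKM in KO. Snord34, which guides methylation of large-subunit rRNA, had 3225 and 2628 FPKM in WT and 2149 and 2004 FPKM in KO. In each of these the lower WT library still exceeded the higher KO library, as it did for 59.8% of all tested genes. The next entries, Snord4a, Snord42a, Snord35a, Snord37 and Snord96a, had means of 2378, 2247, 1965, 1951 and 1914 FPKM.

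In box H/ACA, the highest entry was Snora64, with 1866 and 1419 FPKM in WT 1 and WT 2 and 1162 and 1106 FPKM in KO 1 and KO 2. Snora65 was almost level with it, at 1847 and 1393 FPKM in WT and 1215 and 1049 FPKM in KO. These neighbours did not differ beyond the spread between libraries. Snora62 (E2), which has been tied to pre-rRNA processing as well as to pseudouridylation, had 1626 and 1307 FPKM in WT and 1019 and 1014 FPKM in KO. Snora41 had 1648 and 1206 FPKM in WT and 868 and 900 FPKM in KO. In both, the KO clones lay close together and below the WT clones. Snora33, Snora21, Snora31 and Snora3 had means of 1125, 1121, 1007 and 994 FPKM.

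A pair of distinct entries missed the mean of 1 FPKM required for testing. Snora35, which lies in the serotonin receptor gene Htr2c, was listed at 0.0094, 0.0107, 0.0106 and 0.00937 FPKM in WT 1, WT 2, KO 1 and KO 2, the value that genes without signal share in each library. Snord116, of an imprinted cluster on chromosome 7 that is known for its expression in neurons, was listed at 0.153 and 0.19 FPKM in WT 1 and WT 2 and at 0.322 and 0.625 FPKM in KO 1 and KO 2. The KO values were the higher ones here, but all 4 were far under the level at which other entries were compared. The lowest entry that was tested, Snord123, had a mean of 2.39 FPKM, against 0.322 FPKM for Snord116 just outside. The other 100 distinct entries, 35 of box H/ACA and 65 of box C/D, were tested.

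Entry levels followed the levels of the genes that hold them. Of the 100 tested entries, 95 had a host gene in the files (matched by symbol or RefSeq synonym), 69 hosts in all; 54 entries lay in an intron and in no annotated exon of the host, and 41 in an intron or exon by isoform. Across these 95 entries, the log2 mean of the entry and that of its host correlated at Pearson r = 0.93 and Spearman rho = 0.93. This is a description across entries, which share hosts and libraries and have overlapping gene models. The median ratio of entry FPKM to host FPKM was 0.925, and 77 of 95 lay within 2-fold of equality. In 6 entries the ratio was above 2 and in 12 it was below 0.5.

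**Figure D2:**
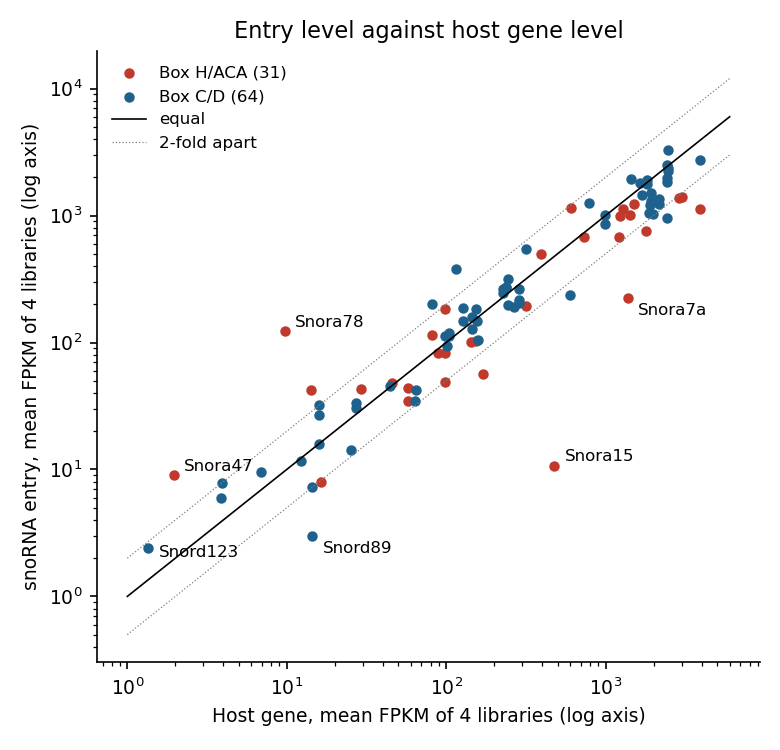
Mean FPKM of each of 95 snoRNA entries (y) against the mean FPKM of its host gene (x), both on log axes, with box H/ACA in red and box C/D in blue. Most points lie between the dotted lines, within 2-fold of equality, and Snora78 and Snora15 lie farthest off, at ratios of 12.6 and 0.0218. Host levels were taken by symbol or RefSeq synonym.

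The 2 entries farthest from their hosts were of box H/ACA. Snora78 had 152 and 150 FPKM in WT and 84.4 and 104 FPKM in KO, while its host Snhg9, a non-coding host transcript, had a mean of 9.69 FPKM. The ribosomal protein gene Rps2 overlaps Snora78 on the opposite strand, and the sources used here do not say whether the counting used strand. At the other end, Snora15 had 11.5 and 15.7 FPKM in WT and 8.3 and 7.49 FPKM in KO. The entry named Cct6a, the symbol of a chaperonin subunit gene, had a mean of 476 FPKM. In the annotation Snora15 lies in an intron of 50470 bases in 1 isoform of the host and overlaps an exon in 1 other. That host is annotated as a processed transcript and not as protein-coding, and its level was taken by symbol. Whether the level belongs to the gene model that encloses Snora15 was not examined. Snora7a stood at a ratio of 0.161 to Rpl32, with 270 and 243 FPKM in WT and 190 and 187 FPKM in KO. In box C/D the highest ratio was 3.21, for Snord47 in Gas5, a non-coding gene built around box C/D snoRNAs.

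The ratio to the host hardly moved between libraries for most entries in ribosomal protein genes. The SD over the 4 libraries of log2(entry/host) had a median of 0.0299 for the 31 entries in 22 ribosomal protein genes and of 0.123 for the 64 entries in other hosts. In the first group it reached 0.365, for Snord73a in Rps3a. The groups also differed in level, with medians of 1243 and 112 FPKM, and the 28 entries of at least 1000 FPKM in any host had a median SD of 0.0306. Rpl13a, a ribosomal protein gene whose snoRNAs are also known from studies of metabolic stress, holds 4 of them. Snord35a stood at 0.831, 0.794, 0.817 and 0.809 of the host in WT 1, WT 2, KO 1 and KO 2, and Snord34 at 1.03, 1.04, 1.02 and 1.05. Snord33 stood at 0.769, 0.777, 0.744 and 0.733, and Snord32a at 0.398, 0.397, 0.4 and 0.402. The order within the host was thus the same in every library. Outside ribosomal protein genes, Snora41 kept 1.88, 1.91, 1.87 and 1.92 times the level of Eef1b2, which codes for a translation elongation factor subunit.

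**Figure D3:**
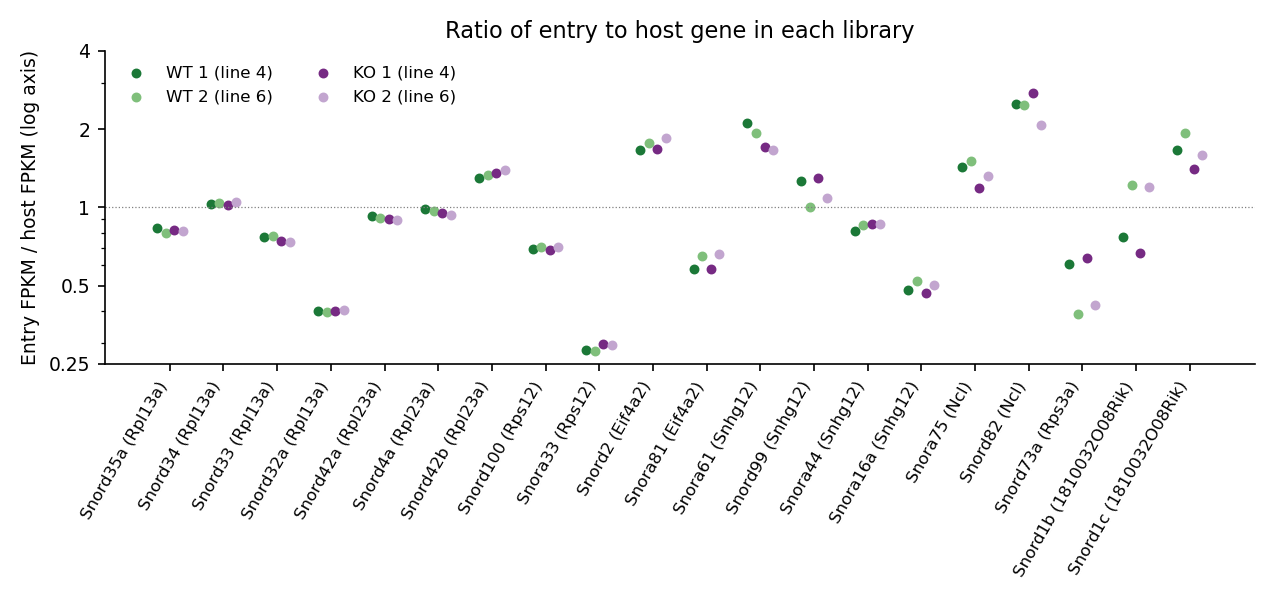
Ratio of entry FPKM to host FPKM (y, log axis) in each of the 4 libraries for 20 entries, with the host in brackets on the x axis. The 4 points of the Rpl13a, Rpl23a and Rps12 entries nearly coincide, whereas Snord73a and Snord1b separate by founder line rather than by genotype.

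The spread of this ratio widened at low levels. Its SD had a median of 0.329 for the 12 entries with a mean under 20 FPKM, 0.118 for the 35 entries at 20 to 200 FPKM, 0.0556 for the 20 entries at 200 to 1000 FPKM, and 0.0306 for the 28 entries of at least 1000 FPKM. Across the 95 entries, SD and log2 level correlated at r = -0.73 (rho = -0.78). The entry-to-host ratio itself was weakly related to GENCODE length (r = -0.26, rho = -0.36). Both are descriptions across entries, and depth is unknown, so the part of counting error in this spread was not tested. Box H/ACA and box C/D had like spreads, with medians of 0.081 and 0.0818.

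**Figure D4:**
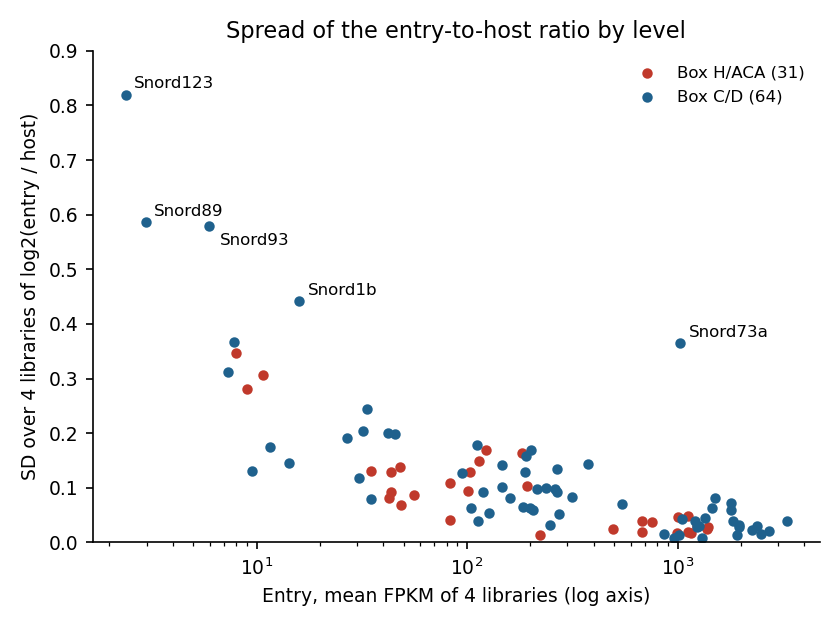
SD over the 4 libraries of log2(entry/host) (y) against mean entry FPKM (x, log axis) for 95 entries, box H/ACA in red and box C/D in blue. The spread is under 0.1 for all but 1 of the entries above 1000 FPKM, the exception being Snord73a, and is highest for Snord123 at 0.82.

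A few entries differed from their hosts by founder line. The mean log2(entry/host) of lines 4 and 6 differed by more than 0.5 in 5 entries, Snord89, Snord1b, Snord123, Snord73a and Snord93, which were singled out after their values were seen. In 2 of these, Snord73a and Snord1b, the line difference was also more than 2 times the difference between KO and WT within a line. Snord73a, in the ribosomal protein gene Rps3a, had 1562 FPKM in WT 1 and 1066 FPKM in KO 1, against 825 FPKM in WT 2 and 674 FPKM in KO 2. Its ratio to the host was 0.605 and 0.641 in WT and KO of line 4, and 0.389 and 0.419 in line 6. Snord1b went the other way, with ratios of 0.769 and 0.67 in line 4 and 1.22 and 1.2 in line 6. Its near copy Snord1c, in the same host 1810032O08Rik, had ratios of 1.66 and 1.4 in line 4 and 1.93 and 1.59 in line 6.

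Other line differences were shared by entry and host. Across 95 entries, log2(WT 2/WT 1) of the entry and of its host correlated at r = 0.83 (rho = 0.87). Snord2, in the translation initiation factor gene Eif4a2, had 799 FPKM in WT 1 and 457 FPKM in WT 2, with 542 and 381 FPKM in KO 1 and KO 2. Snord65, one of 3 box C/D entries in 2410006H16Rik, had 312 and 161 FPKM in WT 1 and WT 2 and 214 and 136 FPKM in KO. In both, WT 1 was the highest library and KO 1 exceeded WT 2, so the genotypes overlapped although KO was below WT within each line.

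The comparison of KO with WT asked how expression changes without Gcn5. The deletion was visible in Kat2a, at 38.7 and 34.4 FPKM in WT and 11.5 FPKM in each KO library. Most genes were lower in KO on the spike-in scale: the median tested gene was lower by 0.32 on the log2(FPKM + 1) scale (0.44 in line 4, 0.19 in line 6), so the snoRNAs are given both as deposited and relative to that median. The control RNA was added per mass of RNA, so this scale does not give RNA per cell, and the cause of the general shift was not tested. Fewer cells of a type and lower expression in each cell cannot be told apart in such bulk samples. All 10 stem cell markers (Pou5f1, Nanog, Sox2 and others) were expressed and lower in KO in both lines, as 86.3% of all tested genes were. Their summed levels were 5357 and 4249 FPKM in WT and 3385 and 3512 FPKM in KO. The 10 feeder fibroblast markers summed to 406 and 292 FPKM in WT and 270 and 338 FPKM in KO, the lowest being Lum at 0.339 to 1.98 FPKM. Of the 9 tested, 0 were lower in both lines (median -0.43 in line 4 and 0.25 in line 6), against 86.3% of all tested genes. Their part in the snoRNA values was not tested.

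SnoRNA entries of both classes were lower in KO in nearly every case. In line 4, 100 of 100 tested entries were lower, where 97.6% of all tested genes were, and in line 6, 93 of 100, where 87.7% were. In both lines 93 of 100 were lower (34 of 35 box H/ACA and 59 of 65 box C/D), against 86.3% of all genes. These counts stand close to the background. The median log2 difference was -0.50 for box H/ACA (-0.59 in line 4, -0.38 in line 6) and -0.45 for box C/D (-0.57 and -0.34), against -0.32 for all genes (-0.44 and -0.19). Under quantile normalization, which gives all libraries the same distribution, the box C/D median of line 6 turned to 0.0398.

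The distance from the median gene was modest and shared. Relative to it, the median was -0.18 for box H/ACA and -0.13 for box C/D. In both lines 68 of 100 entries lay below the median gene, against 27.1% of all tested genes, and 6 lay above it in both, against 27.1%. By class, 26 of 35 box H/ACA entries were below in both lines and 0 above, and 42 of 65 box C/D entries were below and 6 above. Over both lines, 86 of 100 lay below the median gene as deposited and 61 of 100 under quantile normalization, where the box C/D median was -0.0059 relative to all genes. Both KO libraries lay below both WT libraries in 73 of 100 entries, against 59.8% of all genes, with 27 of 35 in box H/ACA and 46 of 65 in box C/D. The shares over all genes were not matched in level, with a median of 195 FPKM for the entries and 9.68 FPKM for all tested genes. Other sets also lay below the median gene in both lines, 21 of 22 ribosomal protein hosts and 9 of 10 stem cell markers. Among other hosts 28 of 47 did, and among microRNA entries 59 of 270.

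As deposited, differences were larger in line 4 than in line 6, as they were for all genes. In line 4, 50 of 100 entries were lower by at least 1.5-fold on the FPKM + 1 scale, against 16.1% of all genes, and in line 6, 5 of 100 were, against 1.5%. This scale understates changes of low genes, and the median level was 195 FPKM for the entries and 9.68 FPKM for all tested genes. Over both lines, values ran from -0.91 (Snora75) to 0.05 (Snord88c) on the log2 scale. Relative to the median gene the order turned: the median over the 100 entries was -0.14 in line 4 and -0.18 in line 6. The difference between the lines was not tested.

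**Figure D5:**
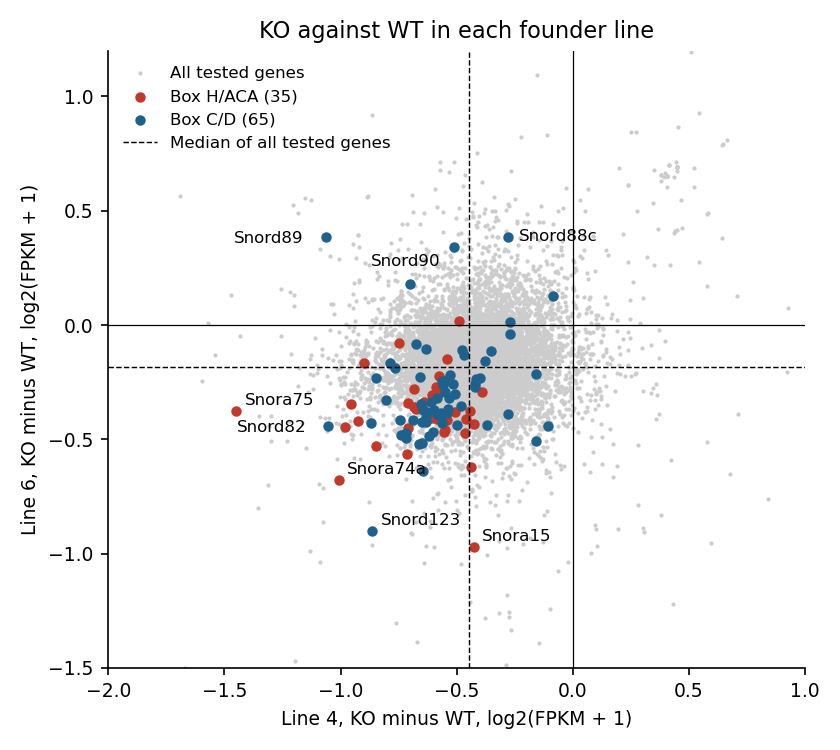
KO minus WT on the log2(FPKM + 1) scale in line 6 (y) against line 4 (x), with all tested genes in grey (30 of 11932 lie outside the axes), box H/ACA in red, box C/D in blue and dashed lines at the median of all tested genes. Most snoRNA entries fall in the lower left, below the median gene in both lines, and Snora75 is lowest in line 4, at -1.45.

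No snoRNA entry passed the test that treats the clones as unpaired. By limma with Benjamini-Hochberg adjustment over 11932 genes, 0 of 100 passed an adjusted p of 0.05, where 2 genes (0.0168%) did. At an unadjusted p under 0.05 there were 58 of 100, all lower in KO, against 5.46% of all genes that were lower at that p. That share was not matched in level. The replicate numbers are founder lines and so pair the clones. With the line as a block, 11 of 100 passed, all lower, against 0.763% of all genes; with the block and a robust spread 14 passed, against 0.738%. When each library was first centred on its own median, 0 passed with the block, where 0.0168% of all genes passed as lower in KO and 33 genes passed in either direction. Leaving out WT 2 in the unpaired fit gave 26 passing entries, against 1.11% of all genes, and leaving out any other library gave 0. Such a fit has 1 clone in an arm, which is assumed to vary like the other group.

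The 11 entries that passed with the founder line as a block held 5 of box H/ACA and 6 of box C/D. All were lower in KO, so groups that do not overlap, as in 59.8% of all tested genes, are no added support. Snora75, which guides pseudouridylation of large-subunit rRNA, had 182 and 117 FPKM in WT 1 and WT 2 and 66.1 and 89.5 FPKM in KO 1 and KO 2. Both KO values lay below both WT values, with a wider gap in line 4. The log2 difference was -0.91 (SE 0.24, limma adjusted p = 0.445, and 0.000654 with the block), lower in 2 of 2 lines. Snord82, in the same host Ncl and a guide of methylation on small-subunit rRNA, had 318 and 192 FPKM in WT and 153 and 141 FPKM in KO. Its log2 difference was -0.75 (SE 0.23, limma adjusted p = 0.445, and 0.0101 with the block). It too was lower in both lines, by 1.05 in line 4 and 0.44 in line 6.

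Snora74a (U19), on chromosome 18 of GRCm38, had no host in the files. Its values were 467 and 550 FPKM in WT and 232 and 343 FPKM in KO, and the groups did not overlap. The log2 difference was -0.84 (SE 0.22, limma adjusted p = 0.445, and 0.000662 with the block), -1.01 in line 4 and -0.68 in line 6. Snora61, 1 of 4 entries in the non-coding gene Snhg12, had 220 and 232 FPKM in WT and 111 and 170 FPKM in KO. KO 1 was the lowest library, and the adjusted p with the block was 0.0201. The other H/ACA entries past the blocked test were Snora41 and Snora78. For Snora41 the log2 difference was -0.67 (SE 0.20 and limma adjusted p = 0.445 without the block, limma adjusted p = 0.0108 with it). For Snora78 it was -0.69 (SE 0.21 and limma adjusted p = 0.445 without the block, limma adjusted p = 0.0385 with it).

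In box C/D, Snord100 stood at -0.58 (SE 0.19 and limma adjusted p = 0.445 without the block, limma adjusted p = 0.0385 with it). Snord95, in Rack1 (Gnb2l1 in the files), whose product is a scaffold of the small ribosomal subunit, had 2312 and 1977 FPKM in WT and 1476 and 1381 FPKM in KO. Both groups were tight, and its blocked limma adjusted p was 0.0432. Snord11, in Nop58, had 317 and 320 FPKM in WT and 173 and 238 FPKM in KO, with a blocked limma adjusted p of 0.0422. Snord19, in the nucleolar GTPase gene Gnl3, had 306 and 343 FPKM in WT and 196 and 220 FPKM in KO, and its log2 difference was -0.64 in each line, with a blocked limma adjusted p of 0.0459. In these 3, which were taken because they passed as lower, the KO range lay below the WT range, as in 59.8% of all tested genes.

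Snord123 was the exception in level. It had 4.97 and 1.81 FPKM in WT 1 and WT 2 and 2.28 and 0.501 FPKM in KO 1 and KO 2, so KO 1 exceeded WT 2. The log2(FPKM + 1) difference was -0.88 (SE 0.36, limma adjusted p = 0.445, and 0.00384 with the block). It was the lowest of the tested entries and had the widest ratio to its host, an SD of 0.82.

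Entries of special roles were also lower in KO without passing. Snord22 (U22), known from work on small-subunit rRNA maturation and hosted by Snhg1, had 275 and 284 FPKM in WT and 181 and 205 FPKM in KO. Snord17 had 230 and 228 FPKM in WT and 139 and 161 FPKM in KO. Both KO libraries lay below both WT libraries in each, as in 59.8% of all tested genes. The adjusted p with the block was 0.15 and 0.0869 (limma). Snora62 stood at -0.52 (SE 0.19 and limma adjusted p = 0.445 without the block, limma adjusted p = 0.117 with it).

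The 31 entries in ribosomal protein genes moved as a tight group. All 31 were lower in both lines, against 86.3% of all tested genes, and 30 had both KO libraries below both WT libraries, against 59.8%. These entries had a median level of 1243 FPKM, against 9.68 FPKM for all tested genes, so the shares were not matched in level. Their log2 differences ran from -0.58 to -0.33 with a median of -0.47. Their 22 host genes had a median of -0.47 as well, and 22 of 22 were lower in both lines. The 64 entries in other hosts ran from -0.91 to 0.05 with a median of -0.46, while the median of their 47 hosts was -0.39.

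The KO difference of an entry stood close to that of its host. The log2 difference of entry and host correlated at r = 0.61 in line 4 (rho = 0.48) and r = 0.48 in line 6 (rho = 0.34) across 95 entries. Taken from log2(entry/host), without the 1 added to FPKM, the median of entry minus host was -0.0073 in line 4 and -0.0117 in line 6. On that scale 82 and 81 of 95 entries lay within 0.25 of their host. All 31 entries in ribosomal protein genes did so in both lines. Entry and host share the libraries, in which most genes were lower, and no pairs of unrelated genes were set beside them, so nothing particular to the host is read from these counts. On the same log2(entry/host) scale, in 28 entries the difference stood above that of the host in both lines and in 34 below.

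Larger departures from the host that repeated in both lines went downward. By more than 0.15 in log2(entry/host) in both lines, 8 of 95 entries were below their host and 0 above, at a threshold set after the values were seen. These were Snora75, Snora36b, Snord1c, Snord1a, Snora47, Snord17, Snora61 and Snord71. Snora36b, Snora47 and Snord71 had means of 7.99, 9.04 and 11.6 FPKM, in the range where the SD of the ratio to the host had its highest median. Snora61 stood at 2.12 and 1.94 times Snhg12 in WT and at 1.7 and 1.67 times in KO. In the same host, Snora44 stood at 0.813 and 0.859 in WT and at 0.863 and 0.86 in KO. Snora16a stood at 0.48 and 0.522 in WT and at 0.47 and 0.502 in KO, slightly lower in both lines. Snord99 stood at 1.27 and 1.00 in WT and at 1.3 and 1.09 in KO. Snord17 stood at 0.811 and 0.723 of the sorting nexin gene Snx5 in WT and at 0.666 and 0.629 in KO. Snora75 stood at 1.43 and 1.5 of Ncl in WT and at 1.19 and 1.32 in KO. In Snora61, Snord17 and Snora75 both KO ratios lay below both WT ratios, which the threshold itself favours, as it kept entries with lower ratios in KO. In Snora36b and Snord1a, kept by the same threshold, the KO and WT ratios overlapped. No test was made of these ratios.

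Entries above the median gene in line 4 as well as in line 6 numbered 6, all of box C/D. Snord12, in the non-coding gene Zfas1 (1500012F01Rik in the files), had 179 and 142 FPKM in WT and 138 and 127 FPKM in KO. Snord52, in 1110038B12Rik, had 170 and 166 FPKM in WT and 141 and 161 FPKM in KO. These were lower in KO by 0.27 and 0.16 on the log2 scale, less than the median gene, and neither passed (limma adjusted p = 0.445 and 0.546). Snord23, in Nop53 (Gltscr2 in the files), a ribosome assembly gene, had 133 and 93 FPKM in WT and 104 and 85.9 FPKM in KO. Its groups overlapped. Snord93, the lowest of the 6, had 3.74 and 7.89 FPKM in WT 1 and WT 2 and 3.47 and 8.7 FPKM in KO 1 and KO 2, so that line 6 exceeded line 4 in both genotypes.

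The near copies Snord88a and Snord88c, both in 2410002F23Rik on the plus strand of chromosome 7, also stood above the median gene. Their sequences (GENCODE M21, GRCm38, capitals as above) show how little separates them.
Snord88a: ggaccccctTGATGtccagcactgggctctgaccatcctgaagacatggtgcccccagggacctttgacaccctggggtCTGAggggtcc
Snord88c: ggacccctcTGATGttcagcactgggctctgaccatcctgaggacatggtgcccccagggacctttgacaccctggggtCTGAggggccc
Snord88a had 32.7 and 31.4 FPKM in WT and 26.9 and 31.8 FPKM in KO, and Snord88c had 36.6 and 28.9 FPKM in WT and 30 and 38 FPKM in KO. The groups overlapped in both. With log2 differences of -0.13 (SE 0.23) and 0.05 (SE 0.23), neither passed (limma adjusted p = 0.642 and 0.851). Any reads shared between them cannot be told apart.

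Genes for the proteins that bind snoRNAs were lower in KO as well, as 86.3% of all tested genes were in both lines. Of the 4 core proteins of box C/D particles, 4 were lower in both lines, with a median log2 difference of -0.42, and of the 4 of box H/ACA particles, 4 were, with a median of -0.36. Fibrillarin (Fbl) had 255 FPKM in each WT library and 172 and 199 FPKM in KO, and dyskerin (Dkc1) had 142 and 133 FPKM in WT and 84 and 111 FPKM in KO. In both genes the KO libraries lay below the WT libraries, as in 59.8% of all tested genes. Of 12 genes of snoRNP assembly and trafficking, such as the helicase Ruvbl2 and the chaperone Nolc1, 11 were lower in both lines, with a median of -0.34. The exception was Naf1, an assembly factor of H/ACA particles, at 9.3 and 10.9 FPKM in WT and 6.89 and 11.3 FPKM in KO. By limma 0 of these genes passed, against 0.0168% of all genes, and at an unadjusted p under 0.05 there were 2 box C/D core, 1 box H/ACA core and 1 assembly gene, against 5.46% of all genes that were lower at that p.

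Other short RNAs gave a reference for entry length. The 9 entries of small Cajal body RNAs, which guide modification of spliceosomal RNAs, had a median log2 difference of -0.48, and 7 of 9 were lower in both lines. MicroRNA entries, 270 of them tested, had a median of -0.31, and 147 of 270 were lower in both lines (54.4%), against 86.3% of all genes. Their median level was 7.58 FPKM, against 195 FPKM for snoRNA entries, so the groups differ in level as well as in kind.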

How the data were processed

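The authors deposited 1 table per library, with FPKM normalized to spike-ins. The submitters' processing notes list Bowtie 0.12.8, TopHat2 2.0.9, affy, HTSeq, edgeR and the build mm9, with no roles. A file has 23376 entries, of which 92 are spike-ins, and 25 names per file without a partner in the other files were left out. Depth is unknown, so no counting interval is given. The reference is GENCODE M21 on GRCm38, another build than the files', so no coordinates are printed; 103 of 104 entries matched by symbol.

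The log2(FPKM + 1) scale was used, on which changes of low genes are understated. Ratios of entry to host and of WT 2 to WT 1 were taken from FPKM without the added 1. A mean over 4 libraries of 1 FPKM or more was met by 11932 genes, and these were tested with limma 3.58.1 in R 4.3.3 (eBayes with trend, two-sided, Benjamini-Hochberg, 0.05), without a block. The prior df was 16.4, and infinite with the founder line as a block, where genes of like level share 1 spread. Deviations of WT and KO of line 4 from their group means correlated at 0.70 over 11932 genes. Each group holds 2 clones. The fit was tested on simulated data. Alternatives were another pseudocount (0.1 FPKM), no filter, a mean of 10 FPKM, other scalings, the block, robust spreads and leaving out each library.

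Named entries are up to 8 per class by level, those past either test, up to 5 per class and direction by lowest p on 1 side of the median gene in both lines, and entries of special roles or imprinted clusters. Entries named beyond this rule were chosen after their values were seen. The members and lists were chosen with earlier results of these data known.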

Additional observations from a re-analysis of the deposited data

Results flagged for a closer look

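In all, 7 snoRNA entries were lower in KO in line 4 and higher in KO in line 6, a pattern that 11.3% of all tested genes showed. Feeder fibroblast markers also stood lower in KO in line 4 and higher in line 6 (median log2 differences of -0.43 and 0.25 over the 9 tested), and their part in this was not tested. The difference between the lines was not tested, and each value rests on 1 clone per genotype and line. Snord89 lies in Gm15832, which was matched to Rnf149 in the files by RefSeq synonym. It had 3.58 FPKM in WT 1 and 1.19 FPKM in KO 1, against 2.95 FPKM in WT 2 and 4.16 FPKM in KO 2. Its log2 difference in line 6 minus that in line 4 was 1.45. Snord91a, in Tsr1, had 51.3 and 31.2 FPKM in WT and KO of line 4 and 40.4 and 45.9 FPKM in line 6, a gap of 0.879. Snord90 had 9.33 and 6.25 FPKM in line 4 and 9.87 and 12.8 FPKM in line 6, a gap of 0.851. Snord88c showed a gap of 0.664, Snora28 0.507, Snord88a 0.285 and Snord93 0.212. Snord89, Snord90 and Snord93 were among the 12 entries with a mean under 20 FPKM and a host in the files, where the ratio to the host had its highest median SD, 0.329.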

How the results depend on the processing

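With the replicate block, which pairs WT and KO of 1 founder line, 11 of 100 snoRNA entries passed, and 14 with the block and a robust spread, against 0 without the block. Leaving out 1 library gave 0 to 26, with 26 without WT replicate 2, where the lone WT clone is assumed to vary like the KO clones. For box H/ACA the median log2 difference was -0.193 after centring on each library's median, with or without the block, and -0.0755 under quantile normalization. In line 4 it was -0.123 and -0.0829 under these settings, and in line 6 -0.234 and -0.0318. For box C/D the median was -0.145 after centring, with or without the block, and -0.00463 under quantile normalization. In line 4 it was -0.102 and -0.0356, and in line 6 -0.19 and, turned in sign, 0.0398. After centring, both classes were thus further below 0 in line 6 than in line 4, the reverse of the deposited scale. Centring moved the median of all genes from -0.317 to -0.011, and relative to that median the classes kept their values. Under quantile normalization 8 named entries turned sign, namely Snora33 (0.00826), Snora3 (0.0116), Snord42b (0.0223), Snord96a (0.00856), Snord12 (0.0981), Snord23 (0.144), Snord52 (0.224) and Snord88a (0.214). Centred values, with or without the block, turned Snord12 (0.0378), Snord23 (0.0734), Snord52 (0.151) and Snord88a (0.177), which follows from how they were chosen, as entries above the median gene in both lines. Leaving out 1 library moved Snord23 between -0.487 and 0.0228, positive without WT replicate 1, and Snord88c between -0.114 and 0.221, negative without WT replicate 2 and without KO replicate 2 (-0.111). The pseudocount, the filters and the robust spread without the block turned no named entry and changed no call among them. Depth is unknown, and the SD of the ratio to the host had its highest median, 0.329, in the 12 entries with a mean under 20 FPKM. Apart from the settings' own construction, the cause of these shifts was not tested.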
